A study of Mus musculus with 32 samples.

Results

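The spots described here are expressed sequence tags (ESTs, single-pass reads of cDNA clones) whose array title compares them with a known protein and whose signal was bright throughout. They were chosen as gene spots titled ESTs, Highly similar to or ESTs, Moderately similar to a named protein, with a spot intensity of at least 2 times the array's background on all 32 arrays. Of 4696 gene spots, 471 carried such a title, and 37 of these passed the brightness rule, 22 titled highly and 15 moderately similar. The spots were thus selected on their own signal over background, and those values are given below as a description. Each spot is called here by the protein in its title, so a name such as HEXIM1 stands for the EST similar to that protein and not for a clone matched to the mouse gene.

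Prefrontal cortex came from drug-naive adult mice of lines bred from HS/Ibg stock for opposite severity of ethanol withdrawal, prone (WSP, Withdrawal-Seizure Prone) or resistant (WSR, Withdrawal-Seizure Resistant) to withdrawal seizures, each kept as 2 independently selected lines. Ethanol-treated mice (EtOH) were injected with ethanol, at 1.5 g/kg except for a somewhat higher dose in the second WSP line, and then breathed its vapor for 72 h. Control mice (Air) stayed in air chambers, and pyrazole, which inhibits alcohol dehydrogenase, was given to both at 68.1 mg/kg. Cortex was collected at 21 days of withdrawal, and RNA from 2 animals was pooled for each array. The 8 groups of 4 arrays were Female WSP EtOH, Female WSP Air, Female WSR EtOH, Female WSR Air, Male WSP EtOH, Male WSP Air, Male WSR EtOH and Male WSR Air. Within a group, replicates 1 and 2 came from the first selected line and replicates 3 and 4 from the second, so p-values measure the spread between these pools.

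HEXIM1 holds the kinase complex P-TEFb inactive together with the small nuclear RNA 7SK, and release of P-TEFb lets paused RNA polymerase II elongate. It was first described as a protein induced in cells treated with hexamethylene bisacetamide. Many of the other titles name proteins that every cell uses, such as splicing, mitochondrial and ubiquitin pathway proteins, others state no function, and a few name proteins of restricted cells, such as the vascular and blood progenitor antigen CD34.

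By the titles, 9 spots belonged to RNA synthesis, processing and chromatin. Besides HEXIM1 these were cyclin K, a cyclin partner of transcriptional kinases, an RNA polymerase transcriptional regulation mediator, a small subunit shared by the 3 nuclear RNA polymerases, and the 50 KD subunit of cleavage stimulation factor, which acts in 3′ end formation. The others were the arginine/serine-rich splicing factor 8, M-phase phosphoprotein 8, a chromatin protein that binds methylated histone H3, the histone chaperone SET, and IDN3, an older name of the cohesin loader NIPBL. Translation had 2 spots, INT-6, a subunit of initiation factor eIF3, and a polyadenylate-binding protein.

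Protein turnover and folding had 3 spots, namely TEB4, a ubiquitin ligase of the endoplasmic reticulum, the deubiquitinase AMSH, and the peptidyl-prolyl isomerase EPVH. Mitochondria and metabolism had 5 spots: the PDSW subunit of respiratory complex I, cytochrome c oxidase VIIb, diphosphomevalonate decarboxylase of sterol synthesis, diamine acetyltransferase of polyamine breakdown, and choline/ethanolaminephosphotransferase of phospholipid synthesis. Signalling had 3, the RAF kinase, the precursor of the peptide neuromedin B, and a spot moderately similar to the pituitary hormone prolactin. Cytoskeleton and adhesion had 2, CD34 and the endothelial actin-binding protein, a filamin.

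The other 13 titles state no function. They were 2 hypothetical human proteins, 1 in a highly similar and 1 in a moderately similar title, KIAA0988, KIAA0948, CGI-30, CGI-48, a sperm acrosomal protein, an entry called tumor suppressor and an entry called unknown. A hypothetical yeast protein of the CCE1-CAP1 intergenic region, a yeast Trp-Asp repeat protein, a human protein similar to one of worm cosmid K12D12, and a rat entry without a definition line completed the set. Human proteins were named in 23 titles, mouse in 5, rat in 3 and Saccharomyces cerevisiae in 2, and Xenopus laevis, elephant (Loxodonta africana), Bos taurus and Schizosaccharomyces pombe proteins in 1 each. Each of the 37 was the only gene spot of its sequence cluster on the array, so no member was measured by a second spot.

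Brightness differed strongly between arrays. In males it followed line, and in Female WSR mice it followed treatment. Male WSR arrays had 1682 to 2040 gene spots at 2 times background or more, whereas male WSP arrays had 518 to 604, and the 2 sets did not overlap. In Female WSR mice 940 to 1095 spots were that bright with EtOH, against 783 to 922 with Air, also without overlap. The median signal of the 37 spots over background was 6.85 to 9.68 on Male WSP EtOH arrays, 6.94 to 10.8 on Male WSP Air, 73.6 to 105 on Male WSR EtOH and 62.4 to 98.5 on Male WSR Air. In females it was 9.07 to 33.2 in WSP EtOH and 22.9 to 46.2 in WSP Air, and 34.2 to 40.0 in WSR EtOH and 16.4 to 22.3 in WSR Air. Values below are log2 intensities after background correction and quantile normalization, which gives every array the same distribution, and the number of arrays limits their precision.

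**Figure D1:**
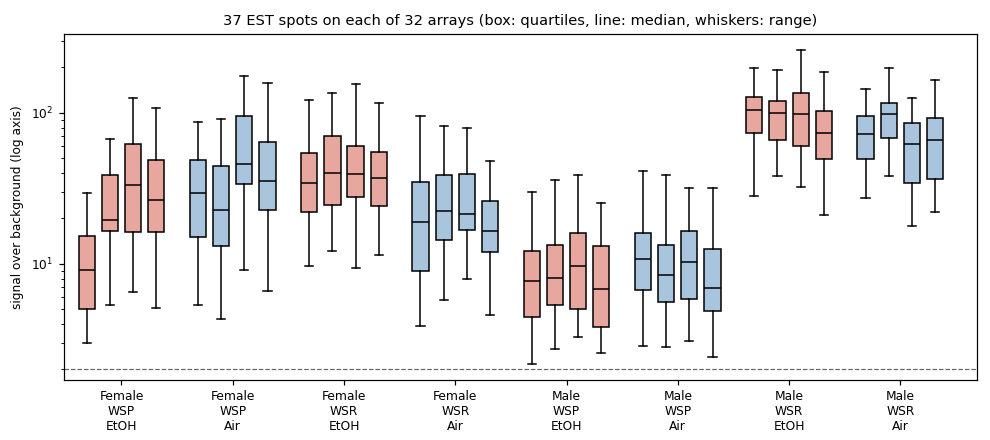
Signal over background of the 37 EST spots on each of the 32 arrays (log axis). Each box is 1 array, with quartiles, median and range, EtOH left of Air within each sex and line, and the dashed line marks 2 times background. Medians lie between 6.85 and 10.8 on male WSP arrays and between 62.4 and 105 on male WSR arrays.

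The labelled tissue could be checked only in part. Of the marker genes looked for by title, 0 of 7 for neurons and 0 of 5 for microglia were found, and 1 gene each was found for astrocytes, oligodendrocytes, vessels, choroid plexus and blood. Glutamine synthetase of astrocytes and the choroid plexus carrier transthyretin were at 2 times background on 32 arrays, proteolipid protein of myelin on 9 and endoglin of vessels on 11. Hemoglobin alpha of blood was that bright on 32 arrays in 1 spot and on 0 arrays in another. In RNA from whole tissue, fewer cells of a type and less RNA per cell cannot be told apart.

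Mean normalized log2 intensity over all arrays ranged from 7.38 to 10.12 among the 37 spots. The 5 with the highest means were INT-6 (10.12), cytochrome c oxidase VIIb (9.80), the PDSW subunit (9.56), tumor suppressor (9.53) and unknown (9.53). The 5 with the lowest were cleavage stimulation factor (7.38), KIAA0948 (7.41), RAF kinase (7.54), CGI-48 (7.62) and diamine acetyltransferase (7.79). Spot intensity also depends on the clone on the array, so these means give no order of transcript amounts.

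Closest to the brightness threshold on the inside were cyclin K, whose lowest signal over background was 2.18, cleavage stimulation factor (2.40) and KIAA0948 (2.41). Just outside were ESTs similar to the worm protein T20B12.1 (1.90, at 2 times background on 29 arrays), bleomycin hydrolase (1.88, on 31 arrays) and peroxisome assembly factor-3 (1.85, on 28 arrays). The threshold left out spots that were dim on only a few arrays.

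The median SD of the 37 spots within groups was 0.196, compared with 0.212 for all 474 gene spots at 2 times background on every array and 0.171 for the 2084 gene spots tested. M-phase phosphoprotein 8 had the smallest within-group SD, 0.118. The sperm acrosomal protein had the largest, 0.628, and SET had 0.451. On Male WSP Air replicate 2 both of these were low, at 7.39 for the sperm acrosomal protein and 7.30 for SET, while the other arrays of that group lay between 8.76 and 9.03.

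The question set by the design was whether ethanol left a difference after 21 days within each sex and line. HEXIM1 was singled out with its difference in Female WSP mice already known, so its values there are a description without a test. In Female WSP mice HEXIM1 read 9.69, 9.57, 9.72 and 9.75 on the EtOH arrays, against 8.82, 9.05, 9.24 and 9.31 on the Air arrays. All 4 EtOH arrays lay above all 4 Air arrays. The difference was 0.58 ± 0.12 (log2, SE), with group means of 9.68 ± 0.079 in EtOH and 9.10 ± 0.22 in Air (SD, n = 4 each).

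HEXIM1 overlapped between treatments in the male strata and in Female WSR mice. Female WSR mice read 9.36, 9.18, 9.08 and 9.23 with EtOH, against 9.35, 9.30, 9.39 and 9.61 with Air, a difference of -0.20 ± 0.12. Male WSP mice read 9.22, 9.10, 9.42 and 9.35 with EtOH, against 9.12, 9.14, 9.56 and 9.39 with Air, a difference of -0.03 ± 0.12. In Male WSR mice the values were 9.47, 8.94, 9.14 and 9.30 with EtOH, against 9.14, 9.28, 9.16 and 9.31 with Air, a difference of -0.01 ± 0.12. The ethanol effect in WSP minus that in WSR, averaged over the sexes, was 0.38 ± 0.12 for HEXIM1. Line and ethanol dose are partly confounded in it, because only the second WSP line received the higher dose. It rests mainly on the same Female WSP arrays, with a difference of 0.58, and further on Female WSR (-0.20). The male strata, at -0.03 in WSP and -0.01 in WSR, add little to it.

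**Figure D2:**
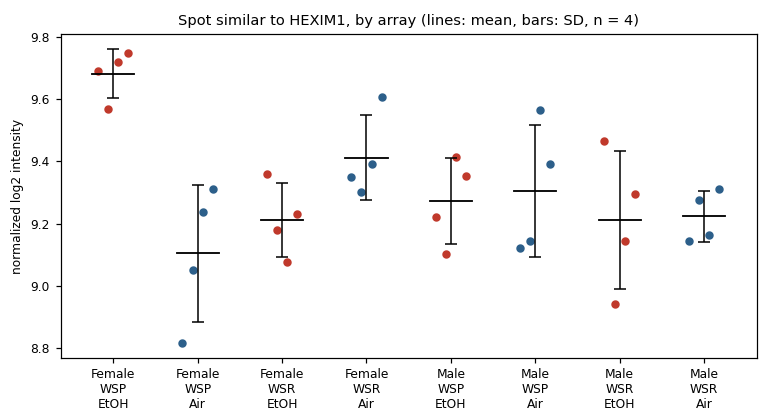
Normalized log2 intensity of the HEXIM1 spot on each array, EtOH (red) left of Air (blue) within each sex and line, with group mean (line) and SD (bars, n = 4). The Female WSP EtOH arrays, at 9.57 to 9.75, lie above the Female WSP Air arrays, at 8.82 to 9.31; the difference turns to -0.19 when arrays are scaled by their median.

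The HEXIM1 difference in Female WSP mice depended on how arrays were brought to one scale. Before normalization its signal over background was 19.2, 50.9, 95.4 and 78.9 on the EtOH arrays, against 37.7, 36.1, 95.4 and 68.3 on the Air arrays, and these overlapped. The Female WSP EtOH arrays had 588 to 1028 gene spots at 2 times background and the Female WSP Air arrays 857 to 1428. HEXIM1 was 0.65 higher with cyclic loess and 1.21 score units higher in the authors' deposited table, but -0.19 under median scaling. Without background correction, still quantile normalized, it was 0.63 higher. Median scaling put the median of all tested spots at -0.12 and that of the 37 spots at -0.65, so HEXIM1 lay below the first and above the second. Within the first WSP line alone the difference was 0.70 and within the second alone 0.46. It was 0.61 with the male WSR arrays left out of normalization and fit. Without replicate 1 it was 0.48, without replicate 2 0.60 and without replicate 3 0.61. HEXIM1 was chosen for this difference, so passing or missing the threshold is no test of it. As a description, it missed an adjusted p under 0.05 without the male WSR arrays and without replicates 1, 2 or 3. The same held in either line alone, with array weights, with only the arrays compared and under median scaling. It passed in the main fit and the other settings, among them without replicate 4 (0.62).

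Of 19 further genes of the P-TEFb and HEXIM1 pathway, 1 was found by title, estrogen receptor 1, a partner of HEXIM1, and it reached 2 times background on 0 arrays. Values for the other genes of the pathway are therefore not given.

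In Female WSP mice HEXIM1, chosen for its difference there, is left out of the count. Of the other 36 spots limma called 0 at an adjusted p under 0.05, against 0.384% of the 2084 gene spots tested. An unadjusted p under 0.05 was found for 4 of them, against 12.5% of tested spots, and the lowest adjusted p was 0.109. Of the 37, HEXIM1 included, 21 lay above 0 and 16 below, with a median of 0.058 against -0.0049 for all tested spots. Besides HEXIM1, the groups of 2 spots did not overlap, both higher with EtOH, namely M-phase phosphoprotein 8 and the yeast CCE1-CAP1 intergenic protein, against 3.74% of tested spots without overlap in either direction.

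M-phase phosphoprotein 8 read 7.83, 7.89, 8.09 and 8.02 in Female WSP EtOH, against 7.55, 7.53, 7.77 and 7.54 in Female WSP Air. Its difference of 0.36 ± 0.10 did not pass (limma adjusted p = 0.109). The CCE1-CAP1 protein read 9.34, 9.18, 9.07 and 9.23 in EtOH, against 8.80, 8.32, 8.93 and 9.04 in Air, a difference of 0.43 ± 0.12 (limma adjusted p = 0.109). Both sets of arrays were separate by a margin smaller than the range within the Air arrays. KIAA0948 differed by 0.36 ± 0.11 (limma adjusted p = 0.118) and overlapped.

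At the other end in Female WSP mice were the rat entry without a definition line, the deubiquitinase AMSH and choline/ethanolaminephosphotransferase. The rat entry differed by -0.30 ± 0.14 (limma adjusted p = 0.377), AMSH by -0.16 ± 0.11 and the transferase by -0.22 ± 0.16. By group, the spots above 0 were 6 of 9 for RNA and chromatin (HEXIM1 included), 9 of 13 without a stated function, 2 of 2 for cytoskeleton and adhesion, and 2 of 3 for signalling. They were 1 of 5 for metabolism, 1 of 3 for protein turnover and folding, and 0 of 2 for translation.

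In Female WSR mice limma called 0 of the 37 spots, against 0.048% of tested spots, and 3 had an unadjusted p under 0.05, against 13% of tested spots. The EtOH arrays of this stratum were all brighter than its Air arrays, so array brightness and treatment cannot be told apart here. The lowest value by the moderated statistic was that of the RNA polymerase mediator, which read 8.08, 8.15, 7.85 and 8.05 in EtOH, against 8.19, 8.39, 8.18 and 8.82 in Air. Its EtOH arrays all lay below the Air arrays, by -0.36 ± 0.15 on average (limma adjusted p = 0.311). The cohesin loader IDN3 read 9.45, 9.19, 8.98 and 9.39 in EtOH, against 9.56, 9.61, 9.25 and 10.11 in Air, and overlapped, with a difference of -0.38 ± 0.16 (limma adjusted p = 0.315). The moderately similar hypothetical protein differed by -0.44 ± 0.23.

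The RAF kinase, the first kinase of the MAP kinase cascade, was at the upper end in Female WSR mice. It read 7.54, 7.80, 7.67 and 7.74 in EtOH, against 7.57, 7.36, 7.47 and 7.38 in Air, a difference of 0.24 ± 0.11 (limma adjusted p = 0.328). The PDSW subunit of complex I read 9.86, 9.65, 9.56 and 9.86 in EtOH, against 9.49, 9.44, 9.65 and 9.52 in Air, a difference of 0.21 ± 0.14 (limma adjusted p = 0.524). Both overlapped between treatments, and the isomerase EPVH differed by 0.18 ± 0.13. The groups of 3 spots in this stratum did not overlap, all lower with EtOH (the mediator, neuromedin B and splicing factor 8), against 5.37% of tested spots in either direction.

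In Male WSP mice limma called 0 of the 37 spots, against 0.048% of tested spots, and 1 had an unadjusted p under 0.05, against 8.45% of tested spots. KIAA0988 read 7.83, 8.04, 7.66 and 7.88 in EtOH, against 8.19, 8.09, 8.04 and 8.10 in Air, a difference of -0.25 ± 0.12 (limma adjusted p = 0.573). The PDSW subunit read 9.39, 9.57, 9.39 and 9.42 in EtOH, against 9.70, 9.53, 9.83 and 9.64 in Air, a difference of -0.23 ± 0.14 (limma adjusted p = 0.700). KIAA0988 did not overlap between treatments, whereas the PDSW subunit did. Cyclin K differed by -0.27 ± 0.20.

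At the upper end in Male WSP mice CGI-30 read 9.40, 9.35, 9.44 and 9.44 in EtOH, against 9.18, 9.31, 9.24 and 9.14 in Air, a difference of 0.19 ± 0.11 (limma adjusted p = 0.699). KIAA0948 read 7.45, 7.61, 7.57 and 7.60 in EtOH, against 7.35, 7.43, 7.41 and 7.34 in Air, a difference of 0.17 ± 0.11 (limma adjusted p = 0.750). These 2 spots and KIAA0988 were the ones without overlap, against 5.57% of tested spots. Cytochrome c oxidase VIIb differed by 0.23 ± 0.17.

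In Male WSR mice limma called 0 of the 37 spots and 0% of all tested spots, and 2 of the 37 had an unadjusted p under 0.05, against 3.07% of tested spots. The highly similar hypothetical protein read 8.35, 8.57, 8.66 and 8.57 in EtOH, against 7.94, 8.35, 8.41 and 8.15 in Air, a difference of 0.32 ± 0.13 (limma adjusted p = 1.00). KIAA0988 read 8.12, 8.15, 7.64 and 7.71 in EtOH, against 7.71, 7.90, 7.34 and 7.64 in Air, a difference of 0.26 ± 0.12 (limma adjusted p = 1.00). Both overlapped between treatments, and AMSH differed by 0.15 ± 0.11.

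CGI-30 was at the lower end in Male WSR mice, with 9.52, 9.61, 9.59 and 9.78 in EtOH, against 9.74, 9.52, 9.74 and 10.11 in Air, a difference of -0.15 ± 0.11. The entry called unknown read 9.28, 9.18, 9.56 and 9.74 in EtOH, against 9.61, 9.39, 9.65 and 9.81 in Air, a difference of -0.18 ± 0.14, and the endothelial actin-binding protein differed by -0.16 ± 0.13. All of these overlapped between treatments. In this stratum the groups of 0 of the 37 spots were separate, against 3.79% of tested spots.

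**Figure D3:**
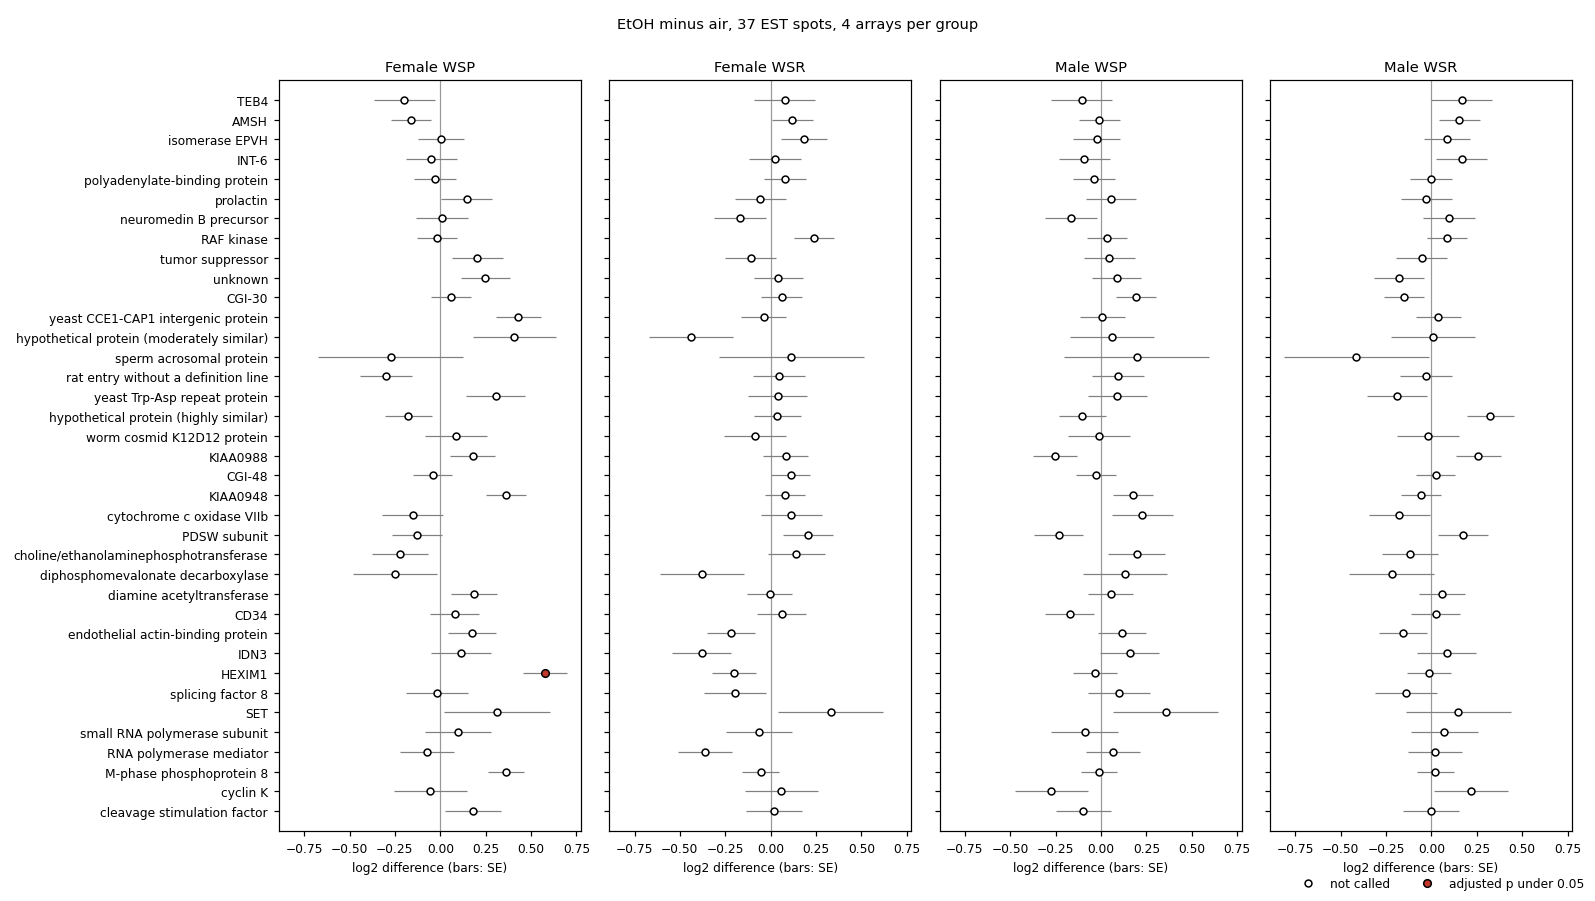
Log2 difference of EtOH minus Air for the 37 EST spots in each sex and line (x axis, bars are SE, 4 arrays per group). HEXIM1 in Female WSP mice, at 0.58, is the single filled point, a spot chosen for this difference, and it turns to -0.19 under median scaling; the other points spread on both sides of 0.

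Averaged over the 4 strata, limma called 0 of the 37 spots and 0% of tested spots, and 1 of the 37 had an unadjusted p under 0.05, against 4.7% of tested spots. KIAA0948 had the highest moderated statistic, at 0.14 ± 0.056 (limma adjusted p = 0.857). The histone chaperone SET differed by 0.31 in WSP and 0.33 in WSR females, and by 0.36 in WSP and 0.15 in WSR males. The average of 0.29 ± 0.15 did not pass (limma adjusted p = 0.857). The Male WSP value rested on the low Air replicate 2, and without replicate 2 of every group it was 0.028. SET then differed by 0.32 in Female WSP, 0.57 in Female WSR and 0.0835 in Male WSR mice. Its average then was 0.25 (limma adjusted p = 0.965). Diphosphomevalonate decarboxylase was at the lower end with -0.18 ± 0.12, followed by the mediator at -0.09 ± 0.075 and neuromedin B at -0.06 ± 0.072. The CCE1-CAP1 protein averaged 0.11 ± 0.062.

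The difference between the lines' ethanol effects, WSP minus WSR, addresses whether the response depended on line. Limma called 0 of the 37 spots, against 0.24% of tested spots, and 5 had an unadjusted p under 0.05 (4 without HEXIM1), against 12.6% of tested spots. The endothelial actin-binding protein had 0.33 ± 0.13 (limma adjusted p = 0.260) and KIAA0948 had 0.26 ± 0.11. At the lower end were the PDSW subunit with -0.37 ± 0.14 (limma adjusted p = 0.237), the highly similar hypothetical protein with -0.32 ± 0.13 and AMSH with -0.22 ± 0.11. The PDSW subunit differed by -0.13 in Female WSP and -0.23 in Male WSP mice, and by 0.21 in Female WSR and 0.17 in Male WSR mice.

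Between the lines themselves, the bright ESTs of females did not separate. The 8 arrays of each line and sex were pools from 2 independently selected lines. Line p-values here and below thus measure the spread between pools and not between selected lines. In females, with both treatments weighted equally, limma called 0 of the 37 spots for WSP minus WSR, and 0 had an unadjusted p under 0.05, against 24% of tested spots. Over all tested spots 12.1% were called, 7.53% higher and 4.56% lower in WSP, and among the 474 gene spots at 2 times background on every array 1.05%. The lines' arrays overlapped for all 37 spots, and 1.3% of tested spots did not overlap. The ends of the list were INT-6 with -0.19 ± 0.10 (limma adjusted p = 0.254), the endothelial actin-binding protein with -0.13 ± 0.093 and cytochrome c oxidase VIIb with -0.16 ± 0.12. At the other end were TEB4 with 0.22 ± 0.12 (limma adjusted p = 0.264), KIAA0988 with 0.16 ± 0.087 and diphosphomevalonate decarboxylase with 0.27 ± 0.16.

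In males 19 of the 37 spots (51.4%) were called by limma, 10 higher and 9 lower in WSP than in WSR, against 58.3% of all tested spots and 54.6% of the gene spots bright on every array. Over all tested spots 24.4% were higher and 34% lower, and 20 of the 37 had an unadjusted p under 0.05, against 61.6%. The share among the 37 was thus close to the background. The brightness rule is not independent of this comparison, because male WSP arrays were among the dimmest that it used. The median male line difference was 0.071 in the 37 and 0.082 in the 474 spots bright on every array. It was -0.0046 in all tested spots. Counts, directions and p-values of the male line difference are therefore a description of spots chosen partly on the same arrays. Male WSR arrays stood apart in brightness, so array brightness and line cannot be told apart in males, and no value of this comparison exists without those arrays. Median scaling put all 37 spots lower in male WSP, with a median of -2.43 against -0.69 for all tested spots, so it turned every higher spot and could turn no lower one. Cyclic loess kept the direction of 6 of the 10 higher and of all 9 lower spots. The authors' table kept that of 6 of the 10 higher and 6 of the 9 lower spots. Under both at once, 5 of the higher and 6 of the lower spots kept their direction. Leaving out background correction kept the quantile normalization, so it is no other scaling, and all 19 kept their direction there.

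Both spots of cytoskeleton and adhesion were higher in male WSP, except under median scaling, which turned both. The endothelial actin-binding protein, a filamin that crosslinks actin, ranged from 7.92 to 8.25 (median 8.14) on the 8 male WSP arrays, against 6.72 to 7.35 (median 6.94) on the 8 male WSR arrays. The 2 lines did not overlap, and the difference was 1.16 ± 0.093 (limma adjusted p = 4.78e-12). CD34 ranged from 7.97 to 8.48 (median 8.10) in male WSP, against 7.04 to 7.65 (median 7.38) in male WSR, without overlap and with a difference of 0.81 ± 0.095 (limma adjusted p = 1.12e-08). Endoglin, the 1 of 5 vessel markers found by title, was at 2 times background on 11 arrays. It differed by 0.31 ± 0.11 in males (limma adjusted p = 0.0177). In females its difference of 0.29 ± 0.11 did not pass (limma adjusted p = 0.0972). Other markers also differed between the male lines, where array brightness and line cannot be told apart. Hemoglobin alpha of blood, by its bright spot alone, differed by 0.40 ± 0.087 (limma adjusted p = 0.000207). Proteolipid protein, at 2 times background on 9 arrays, differed by 0.34 ± 0.13 (limma adjusted p = 0.0203). Transthyretin differed by -0.29 ± 0.097 (limma adjusted p = 0.0100), while glutamine synthetase differed by 0.22 ± 0.11 and did not pass. In females hemoglobin alpha differed by -0.01 ± 0.087, and the female minus male difference was -0.42 ± 0.12 (limma adjusted p = 0.00543). The part of these markers in the CD34 and filamin differences was not tested.

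Among the 9 RNA and chromatin spots, 1 was higher, 3 were lower and 5 were not called in male WSP. M-phase phosphoprotein 8 ranged from 7.60 to 7.94 (median 7.83) in male WSP, against 8.56 to 8.98 (median 8.72) in male WSR. It did not overlap between the lines and had the smallest adjusted p of the 37 spots, with a difference of -0.95 ± 0.071 (limma adjusted p = 1.09e-12). Cyclin K ranged from 7.25 to 8.01 (median 7.76) in male WSP, against 7.94 to 9.31 (median 8.84) in male WSR, a difference of -0.99 ± 0.14 with overlap. The small RNA polymerase subunit fell by 0.51 in male WSP relative to male WSR. These 3 spots kept their direction with cyclic loess and in the authors' table.

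Cleavage stimulation factor went the other way from these, with 7.39 to 7.61 in male WSP, against 6.71 to 7.34 in male WSR. Its difference of 0.49 ± 0.11 was turned by median scaling and in the authors' deposited table. HEXIM1 ranged from 9.10 to 9.56 (median 9.29) in male WSP, against 8.94 to 9.47 (median 9.22) in male WSR, and was not called, with a difference of 0.07 ± 0.086 (limma adjusted p = 0.492).

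**Figure D4:**
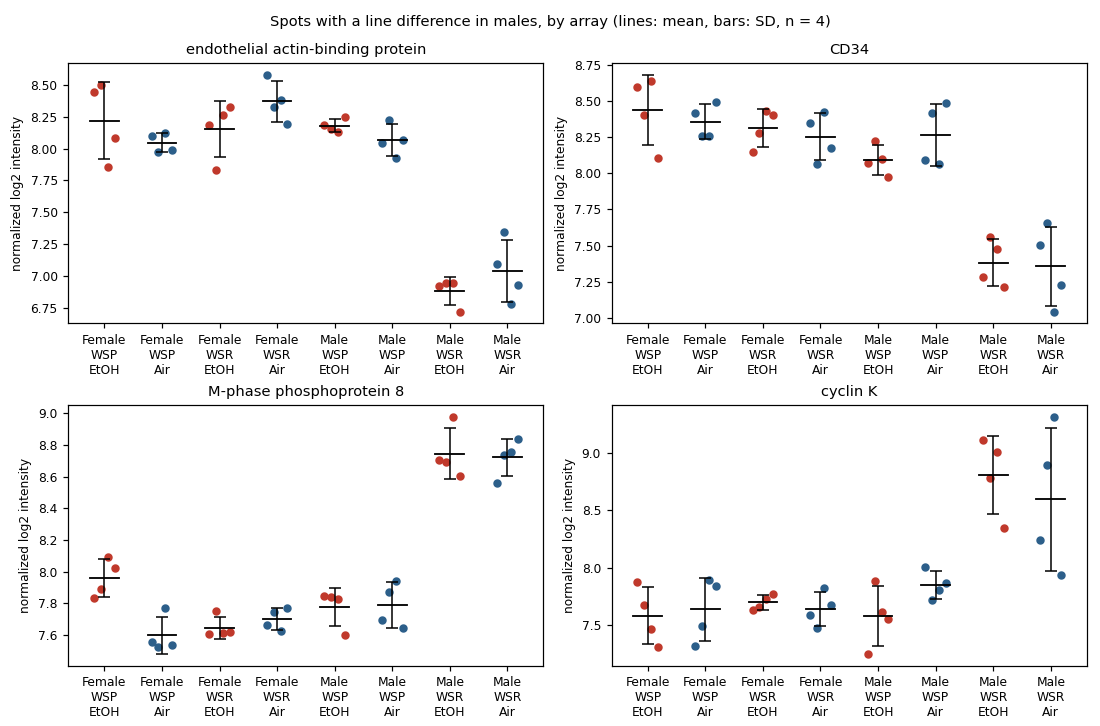
Normalized log2 intensity on each array for 4 spots with a line difference in males, EtOH (red) left of Air (blue), WSP left of WSR, with mean and SD (n = 4). The male WSR arrays lie wholly below male WSP for the endothelial actin-binding protein and CD34 and wholly above for M-phase phosphoprotein 8, and are higher but overlap for cyclin K; median scaling turns the first pair.

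Of the 3 spots for protein turnover and folding, 2 were lower in male WSP and 1 was not called. The isomerase EPVH fell by 0.35 and AMSH by 0.28 relative to male WSR, and AMSH was turned in the authors' table. TEB4 differed by 0.18 ± 0.12 and did not pass. The 2 translation spots, INT-6 (0.10 ± 0.10) and the polyadenylate-binding protein (0.02 ± 0.082), were not called either.

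Among the 5 metabolic spots, 2 were higher and 1 lower in male WSP. Diamine acetyltransferase had a difference of 0.45 ± 0.088 and diphosphomevalonate decarboxylase 0.40 ± 0.16, whereas choline/ethanolaminephosphotransferase had -0.34 ± 0.11. The acetyltransferase was turned by median scaling, cyclic loess and the authors' table, the decarboxylase by median scaling alone, and the transferase in the authors' table alone. The respiratory chain subunits PDSW (0.03 ± 0.097) and cytochrome c oxidase VIIb (0.10 ± 0.12) were not called.

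Of the 3 signalling spots, neuromedin B and RAF kinase were higher in male WSP, and both were turned by median scaling and cyclic loess, RAF kinase also in the authors' deposited table. Neuromedin B ranged from 7.78 to 8.47 (median 8.35) in male WSP, against 7.50 to 7.94 (median 7.80) in male WSR, a difference of 0.52 ± 0.10 with overlap. RAF kinase differed by 0.33 ± 0.078, and the spot similar to prolactin by -0.22 ± 0.098, which did not pass (limma adjusted p = 0.057).

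Of the 13 spots whose titles state no function, 3 were higher, 3 lower and 7 not called in male WSP. The rat entry without a definition line (0.80 ± 0.10) and the worm cosmid K12D12 protein (0.79 ± 0.12) did not overlap between the lines and were turned by median scaling alone. KIAA0988 had 0.21 ± 0.087 and was turned by median scaling, cyclic loess and the authors' table. CGI-30 had -0.39 ± 0.079 and was turned in the authors' table. The yeast Trp-Asp repeat protein (-0.30 ± 0.12) and the highly similar hypothetical protein (-0.25 ± 0.092) kept their direction with cyclic loess and in the authors' table. In all, 6 spots lay wholly above and 3 wholly below between male WSP and male WSR arrays, against 32.4% of tested spots in either direction.

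**Figure D5:**
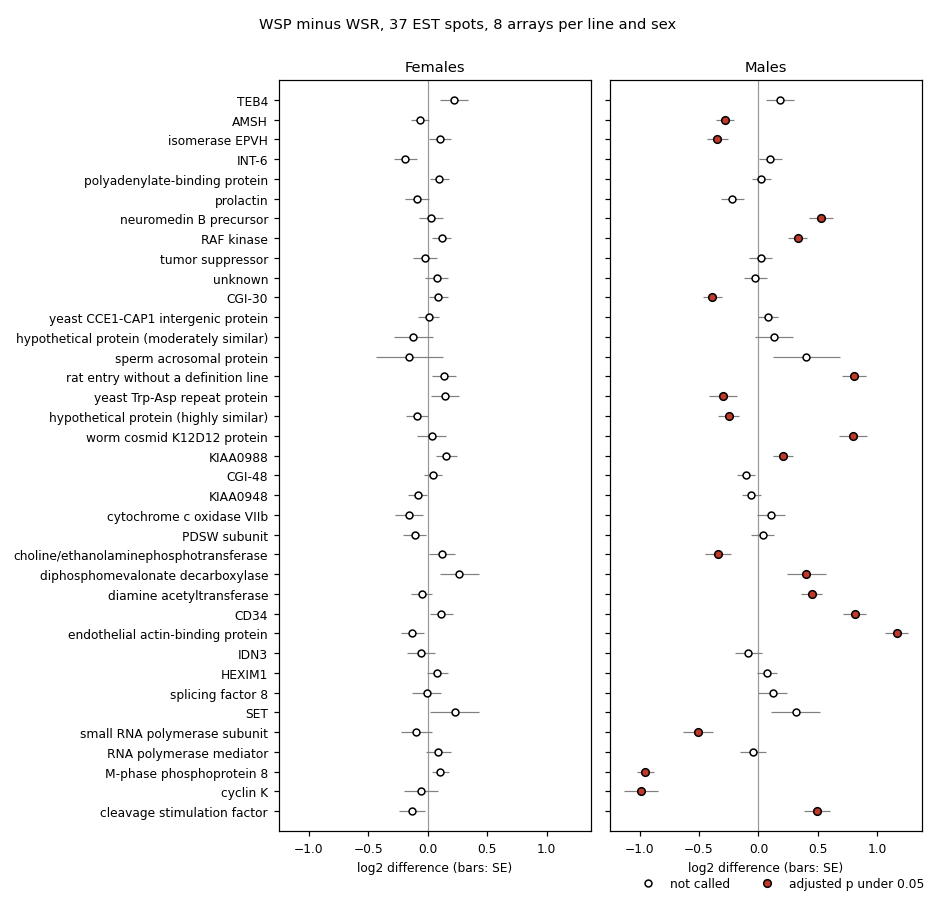
Log2 difference of WSP minus WSR for the 37 EST spots in females and in males (x axis, bars are SE, 8 arrays per line and sex). No female point is filled, and 19 male points are, from -0.99 for cyclin K to 1.16 for the endothelial actin-binding protein; all 10 filled points above 0 turn under median scaling.

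The line difference in females minus that in males addressed whether the lines differed alike in both sexes. Its male part is the comparison in which array brightness and line cannot be told apart, so the same limit holds for this contrast. The limit from the brightness rule holds for it too. Limma called 13 of the 37 spots (35.1%), 6 above 0 and 7 below, against 53.1% of tested spots and 43.7% of those bright on every array. An unadjusted p under 0.05 was found for 15 of the 37, against 57.9% of tested spots. The largest in size were the endothelial actin-binding protein at -1.29 ± 0.13 (limma adjusted p = 2.66e-09) and M-phase phosphoprotein 8 at 1.06 ± 0.10 (limma adjusted p = 9.08e-10). Cyclin K had 0.93 ± 0.20, the K12D12 protein -0.76 ± 0.17 and CD34 -0.69 ± 0.13. In each of these 5 the female lines overlapped, for example 7.86 to 8.50 in female WSP against 7.83 to 8.58 in female WSR for the endothelial actin-binding protein, and 7.53 to 8.09 against 7.60 to 7.77 for M-phase phosphoprotein 8. Median scaling put all 37 spots above 0, with a median of 1.81. Cyclic loess kept the direction of all 13 called spots. The authors' table kept that of 5 of the 7 spots below 0 and 4 of the 6 above 0.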

How the data were processed

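Per the labels' protocols, total RNA of 2 animals (2.5 µg each) was pooled per array and labelled with 33P by reverse transcription from anchored oligo-dT primers. The 32 deposited array files give 1 intensity per spot and 1 background intensity per array (6.96 to 30.3), not subtracted. A second deposited table holds the authors' score per spot, a linear function of log2 intensity within its array. Neither scanner nor software is given in the sources used here.

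Gene spots made up 4696 of the 5355 spots per array. Intensities were corrected with limma's normexp method (offset 50), moved to log2 and quantile normalized over gene spots. Gene spots at 2 times background on at least 4 arrays were tested, which left 2084, among them all 37 members. Limma 3.58.1 in R 4.3.3 fitted 8 group means with an intensity trend, leaving 24 residual degrees of freedom. The 9 contrasts were each adjusted with Benjamini-Hochberg over the 2084 spots, and spots at an adjusted p under 0.05 were called. The procedure was tested on simulated data. Spots were joined on their number, since 1 file, Female WSR Air replicate 1, had another row order. The score table had 0 columns without a sample.

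The members and lists were chosen with earlier results of these data known. Spots were named by title, with values for HEXIM1, the ends of each contrast by moderated t, the brightest and dimmest, those next to the threshold, and the called line differences, which were added with their values seen. Alternatives were cyclic loess, median scaling, the authors' table, no filter, no background correction, no trend, array weights, blocks, single selected lines, single comparisons and left-out replicates. Figures were drawn with matplotlib 3.10.9. No sequences are printed.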

Additional observations from a re-analysis of the deposited data

Results flagged for a closer look

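Among 296 sets of 4 arrays (37 spots in 8 groups), 12 held 1 array far from the other 3, a number to be read against the 1 in 20 that chance gives. TEB4 read 9.94 on Female WSP EtOH replicate 4, with the others at 9.25 to 9.34. Prolactin read 8.76 on Male WSR Air replicate 2 (others 8.35 to 8.41), and splicing factor 8 read 9.01 on Female WSR Air replicate 1 (others 8.66 to 8.71). M-phase phosphoprotein 8 stood apart 3 times, at 7.75 on Female WSR EtOH replicate 2, at 7.77 on Female WSP Air replicate 3 and at 7.60 on Male WSP EtOH replicate 4.

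Low values were found on Male WSR EtOH replicate 4 for the endothelial actin-binding protein (6.72) and cleavage stimulation factor (6.73). On Male WSP Air arrays, the sperm acrosomal protein read 7.39 and SET 7.30 on replicate 2, the highly similar hypothetical protein 8.03 on replicate 3 and the small RNA polymerase subunit 7.81 on replicate 4.

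The line difference (WSP minus WSR) differed between females and males for 13 spots, as female minus male difference. It was below 0 for the endothelial actin-binding protein (-1.29), the K12D12 protein (-0.76), CD34 (-0.69), the rat entry (-0.67), cleavage stimulation factor (-0.62), diamine acetyltransferase (-0.50) and neuromedin B (-0.49). It was above 0 for M-phase phosphoprotein 8 (1.06), cyclin K (0.93), CGI-30 (0.48), choline/ethanolaminephosphotransferase (0.46), EPVH (0.45) and the Trp-Asp repeat protein (0.44). The male WSR arrays were also the brightest, so array brightness and line cannot be told apart in the male part of these differences.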

How the results depend on the processing

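Of the counts of called spots, those for Female WSR, for Male WSP and for the average over strata were 0 under every alternative that was run. In Female WSP mice, where the 1 spot past the threshold was HEXIM1, chosen for that difference, the count was 5 (all lower) under median scaling, 2 in the authors' table, 2 without the intensity trend, and 0 with array weights, in either selected line alone, with only the arrays compared and without the male WSR arrays, an alternative added after seeing the data. Leaving out 1 replicate gave 0 to 1, with 0 without replicates 1, 2 or 3, while the HEXIM1 difference stayed at 0.48 to 0.62. Array weights gave 1 in Male WSR (the highly similar hypothetical protein). The ethanol effect of WSP minus WSR gave 19 under median scaling (all lower) and 1 in the authors' table. In females WSP minus WSR gave 31 under median scaling (all lower) and 1 with cyclic loess. In males the 19 became 37 under median scaling, 29 in the authors' table and 11 in the first selected lines alone, and 14 to 18 without 1 replicate. The 13 of females minus males became 37, 24 and 8 under the same settings, and 11 to 13 without 1 replicate.

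Median scaling reversed HEXIM1 in Female WSP (-0.19). For males it reversed diphosphomevalonate decarboxylase (-2.13), CD34 (-2.08), neuromedin B (-2.30), the endothelial actin-binding protein (-1.66), diamine acetyltransferase (-2.39), KIAA0988 (-2.57), the rat entry (-1.99), RAF kinase (-2.46), cleavage stimulation factor (-2.21) and the K12D12 protein (-2.10). For females minus males it reversed CD34 (1.53), neuromedin B (1.66), the endothelial actin-binding protein (0.76), diamine acetyltransferase (1.69), the rat entry (1.48), cleavage stimulation factor (1.52) and the K12D12 protein (1.44). Cyclic loess reversed neuromedin B (-0.051), diamine acetyltransferase (-0.20), KIAA0988 (-0.35) and RAF kinase (-0.25) in males. The authors' table reversed diamine acetyltransferase (-0.54), KIAA0988 (-0.57), RAF kinase (-1.11), cleavage stimulation factor (-1.06), choline/ethanolaminephosphotransferase (0.97), CGI-30 (1.40) and AMSH (0.44) in males, in score units. It also reversed diamine acetyltransferase (0.29), choline/ethanolaminephosphotransferase (-0.72), CGI-30 (-1.11) and cleavage stimulation factor (0.56) for females minus males. The cause was not tested. Median scaling moved the median of all tested spots to -0.69 in males, 0.62 for females minus males, -0.20 for the ethanol effect of WSP minus WSR and 0.18 for ethanol in Male WSR.

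With the replicate number as a block, HEXIM1 in Female WSP stayed at 0.58, and the counts stayed at 1 in Female WSP, 19 in males and 13 for females minus males. Same-numbered arrays correlated between -0.103 and 0.405, so the numbers were not taken as pairs. A brightness threshold of 1.5 or 3 times background would have given 48 or 30 members.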
